A study of Mus musculus with 4 samples.

Results

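Vacuolar proton pumps, carbonic anhydrases and bicarbonate transporters of the SLC4 family were described in whole kidney of diabetic and control mice of 2 inbred strains. The members were chosen by gene symbol alone, as every probe annotated to a symbol that starts with Atp6v or Slc4a or is Car followed by a digit. Car3 was left out. This gave 58 of 24613 probes, which stand for 43 of 15967 named genes: 20 subunits of the vacuolar ATPase, 14 carbonic anhydrases or related proteins, and 9 genes of the Slc4a group. One of these, Slc4a1ap, carries the name of an adaptor protein for Slc4a1 and is not itself a transporter. Atp6v0c, Atp6v1g1, Car14, Slc4a7 and Slc4a11 were not among the measured genes, so the counts by class below leave them out. Of the 43 genes, 33 reached the expression minimum, a mean log2 intensity of 5.49 over the 4 libraries, which is the median over all probes, and 10 did not.

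Acid-base transport by the kidney differs along the nephron. In the proximal tubule, filtered bicarbonate is reclaimed with the help of carbonic anhydrases on the outer face of the cell and in its cytosol, and it leaves the cell through a sodium-coupled transporter of the SLC4 family. In the collecting duct, intercalated cells use a vacuolar ATPase in the plasma membrane to secrete protons, together with an anion exchanger that moves bicarbonate out of the cell on the opposite side. The same ATPase acidifies endosomes and lysosomes in nearly every cell, so several of its subunits exist as a widespread isoform and as one restricted to few cell types.

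The libraries were FVB/N diabetic, FVB/N control, C57BL/6 diabetic and C57BL/6 control, with 1 library per group. Diabetic mice had been diabetic for 21 days by the labels, and controls, which had received saline, were followed for the same 21 days. Ages were given as 8 weeks, both sexes were used without numbers per group, and 6 kidneys were analysed per group. Whether a library is a pool of these kidneys is not stated in the labels, and neither is the way diabetes was brought about. The labels name no genetic change beyond the strain.

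Values are log2 intensities of an Illumina bead array, between 4.45 and 15.84, with library medians of 5.48 to 5.49. With 1 library per group no difference has a replicate check, no test was possible, and each difference compares 2 libraries. A difference is counted here when it reached 1.5-fold, 0.58 on the log2 scale. The only measure of precision is the disagreement between probes of one gene: over 1159 genes with 2 expressed probes, a single probe's difference between diabetic and control had a standard deviation of 0.50 log2 in FVB/N and 0.33 in C57BL/6. The threshold is thus close to this spread in FVB/N and less than 2 of these standard deviations in C57BL/6. In whole kidney, fewer cells of a type and less transcript per cell cannot be told apart. Kidney markers were high in all libraries: the phosphate transporter Slc34a1 lay between 14.52 and 14.97, and uromodulin, Umod, between 12.04 and 12.64.

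Most of the acid-base genes differed little with diabetes. In FVB/N, Car15, Slc4a4, Car4 and Slc4a9 were at least 1.5-fold higher in the diabetic library, and Car11, Slc4a1, Atp6v1c2, Car12 and Car5a at least 1.5-fold lower. In C57BL/6, Atp6v1g2 and Car13 were higher, and Atp6v0a1 and Slc4a9 lower. Slc4a9 was the 1 gene counted in both strains, in opposite directions, and 21 of the 33 genes were within 1.5-fold in both. The share of all expressed genes within 1.5-fold in both strains was not counted. Set against all 9201 expressed genes, the counts of members higher and lower in each strain are ordinary. In FVB/N, 4 of 33 members were higher, 12.1%, where 12.4% of all expressed genes were, and 5 of 33 were lower, 15.2%, against 13.9%. In C57BL/6, 2 members were higher and 2 lower, 6.06% each, against 6.14% and 6.35% of all expressed genes. The median member differed by 0.0057 in FVB/N and by 0.032 in C57BL/6, beside medians of -0.10 and 0.0086 over all expressed genes. Because of that shift in FVB/N, the split over all expressed genes depends on the centring: centred on their median, 15.7% were higher and 9.47% lower, with 5 members higher and 5 lower, and after loess centring 14.6% and 10.7%, with 4 and 5 members. What follows describes single genes by their role.

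**Figure D1:**
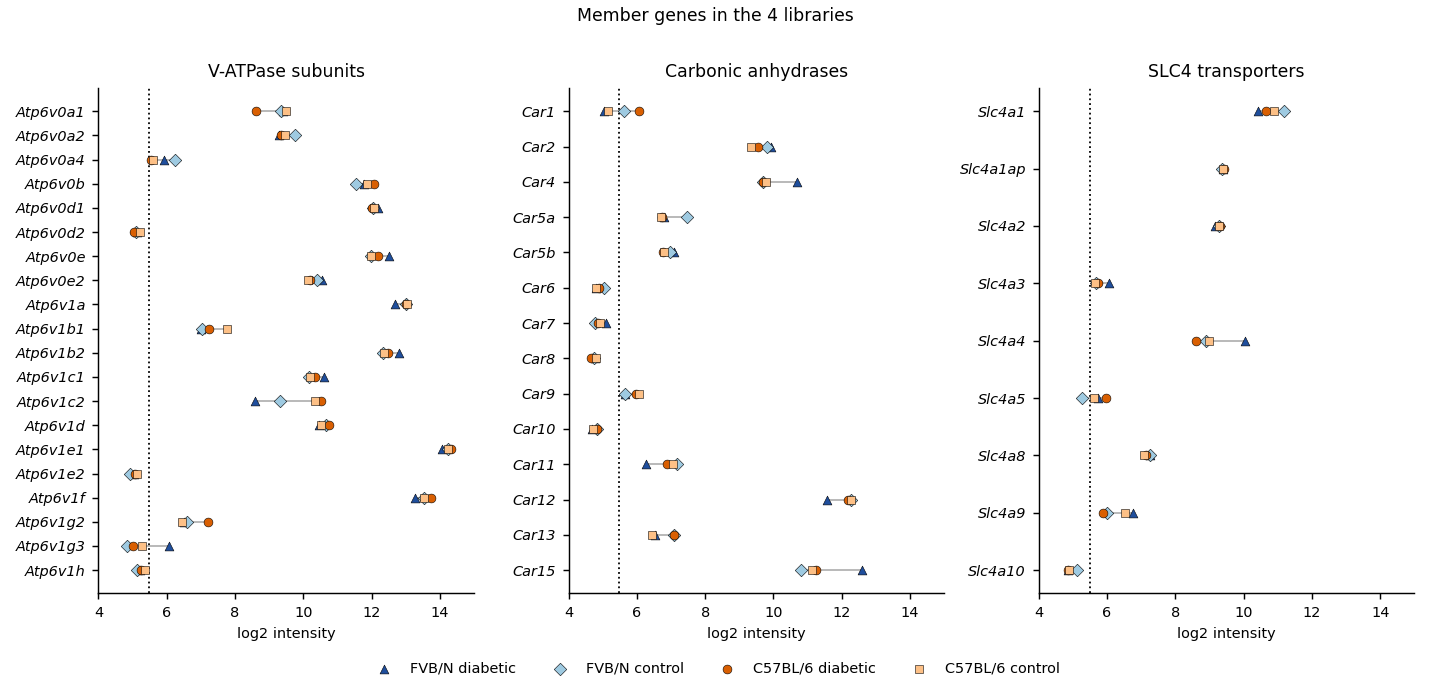
Log2 intensity of each of the 43 member genes (rows) in the 4 libraries (symbols), for the probe with the highest mean; grey lines span the 4 values and the dotted line marks the expression minimum of 5.49. In FVB/N, Car15, Slc4a4 and Car4 stand out by their diabetic value, and the 2 libraries of each strain lie on separate sides for Atp6v1c2.

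**Figure D2:**
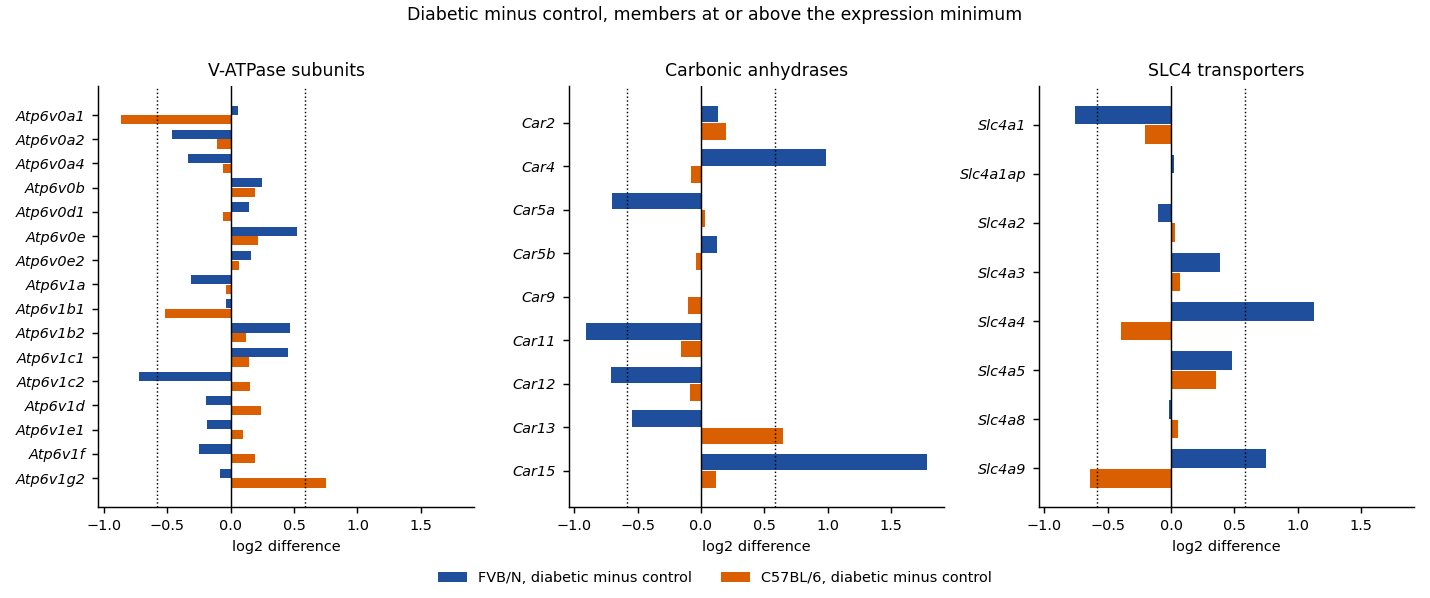
Diabetic minus control difference (log2) of the 33 members at or above the expression minimum, in FVB/N and in C57BL/6; dotted lines mark 1.5-fold. The carbonic anhydrases Car15 and Car4 reach 1.79 and 0.98 in FVB/N and stay at 0.12 and -0.08 in C57BL/6, while most ATPase subunits lie within the lines.

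Among the expressed members, the carbonic anhydrases held the largest difference between a diabetic library and its control. Car15 encodes an enzyme tethered to the outer face of the membrane by a lipid anchor, and its human counterpart is a pseudogene. It read 12.60 in the FVB/N diabetic library, against 10.81 in the FVB/N control, and 11.23 in the C57BL/6 diabetic library, against 11.12 in the C57BL/6 control. One library, the FVB/N diabetic, was thus far above the other 3, which lay close together. The difference in FVB/N was 1.79 log2, 3.45-fold, larger than that of 99.6% of expressed genes there, whereas in C57BL/6 it was 0.12.

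Car4 encodes a second lipid-anchored enzyme, known from the proximal tubule's luminal and basolateral membranes, and here too the FVB/N diabetic library was above the other 3. It read 10.68 in the FVB/N diabetic library, against 9.69 in the FVB/N control, and 9.70 in the C57BL/6 diabetic library, against 9.78 in the C57BL/6 control. The differences were 0.98 in FVB/N, 1.98-fold, and -0.08 in C57BL/6. The sodium bicarbonate cotransporter Slc4a4, the main exit for bicarbonate across the basolateral membrane of the proximal tubule, was the third gene of this kind. Its values were 10.03 in the FVB/N diabetic library, against 8.90 in the FVB/N control, and 8.60 in the C57BL/6 diabetic library, against 8.99 in the C57BL/6 control. This is 1.13 higher in FVB/N, 2.19-fold, and -0.39 in C57BL/6. For Slc4a4 the call rests on 1 of its 3 probes: the other two, with means of 5.75 and 5.201, near the bottom of the scale, gave 0.07 and -0.27 in FVB/N, and the mean of all 3 gave 0.31. Car15 and Car4 had 1 probe each, so nothing within the array checks them.

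Markers of the proximal tubule, where Car4 and Slc4a4 act, are given beside these values. In FVB/N 1 of 8 expressed markers was past 1.5-fold above control and none below, with a median of -0.10. It was the lactate transporter Slc5a12 at 0.71. In C57BL/6 none was as far above control and 2 were as far below, with a median of -0.23. Over all expressed genes 12.4% were above and 13.9% below in FVB/N, and 6.14% and 6.35% in C57BL/6. The summed linear intensity of the list was 72960 in the FVB/N diabetic library against 89982 in the FVB/N control, and 81592 in the C57BL/6 diabetic library against 97503 in the C57BL/6 control. Of 8 principal cell markers 5 were at least 1.5-fold higher in the FVB/N diabetic library and none as far lower, with a median of 0.97. In C57BL/6 1 was as far higher and none as far lower, with a median of -0.03. Adipocyte markers were at least 1.5-fold lower with diabetes for 3 of 4 in FVB/N and 4 of 4 in C57BL/6, with Fabp4 and Plin1 below the expression minimum, and of 5 macrophage markers 3 were higher and 1 lower in FVB/N and 2 higher in C57BL/6. Summed intensity of the principal cell list was 9319 in the FVB/N diabetic library against 6300.05 in the FVB/N control, and 10013 in the C57BL/6 diabetic library against 8828 in the C57BL/6 control. For the adipocyte list the sums were 729 in the FVB/N diabetic library against 2974 in the FVB/N control, and 1408 in the C57BL/6 diabetic library against 3329 in the C57BL/6 control. For the macrophage list they were 561 in the FVB/N diabetic library against 589 in the FVB/N control, and 836 in the C57BL/6 diabetic library against 616 in the C57BL/6 control. The part of cell composition in the values of the members was not tested.

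The promoter windows of these 3 genes are shown because the genes have the highest differences in FVB/N among members at or above the expression minimum. They come from RefSeq on build GRCm38.p6, an assembly of the C57BL/6J strain, so they do not give the FVB/N sequence. Each runs 5′ to 3′ on the gene's strand from 250 bases before an annotated start to 50 bases from it, and capitals mark the 50 bases from the start on. Car15 lies on chromosome 16 from 17835276 to 17838186, Car4 on chromosome 11 from 84957754 to 84966054, and Slc4a4 on chromosome 5 from 88793858 to 89239656. For Slc4a4, 1 of its 2 windows is shown, and which start the probe reads was not resolved. The windows are chr16:17838137-17838436 on the minus strand for Car15, chr11:84957504-84957803 on the plus strand for Car4 and chr5:89027716-89028015 on the plus strand for Slc4a4.
Car15: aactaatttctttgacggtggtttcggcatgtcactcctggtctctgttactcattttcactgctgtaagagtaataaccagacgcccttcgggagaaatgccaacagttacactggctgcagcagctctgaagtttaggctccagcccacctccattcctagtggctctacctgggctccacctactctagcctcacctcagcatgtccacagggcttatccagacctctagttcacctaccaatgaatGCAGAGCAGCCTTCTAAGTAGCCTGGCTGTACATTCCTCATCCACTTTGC
Car4: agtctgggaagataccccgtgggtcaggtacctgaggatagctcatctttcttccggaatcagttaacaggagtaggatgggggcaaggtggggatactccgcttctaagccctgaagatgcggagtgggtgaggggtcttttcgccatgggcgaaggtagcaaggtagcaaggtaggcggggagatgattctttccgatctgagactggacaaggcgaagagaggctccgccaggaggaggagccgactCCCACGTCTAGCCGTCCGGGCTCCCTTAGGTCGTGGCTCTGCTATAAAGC
Slc4a4: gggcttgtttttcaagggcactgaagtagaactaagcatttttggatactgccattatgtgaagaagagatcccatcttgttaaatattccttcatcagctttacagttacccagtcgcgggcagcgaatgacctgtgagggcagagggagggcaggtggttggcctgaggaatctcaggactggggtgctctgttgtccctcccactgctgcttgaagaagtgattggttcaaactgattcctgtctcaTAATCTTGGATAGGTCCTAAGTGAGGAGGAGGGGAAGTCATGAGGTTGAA

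On the lower side in FVB/N stood another membrane enzyme, Car12, whose active site also faces outward. It read 11.55 in the FVB/N diabetic library, against 12.26 in the FVB/N control, and 12.19 in the C57BL/6 diabetic library, against 12.28 in the C57BL/6 control. The FVB/N diabetic library was again the one apart from the other 3, here below them, by 0.71 from its control. The hypoxia-induced membrane enzyme Car9 did not reach 1.5-fold. It lay between 5.64 and 6.07 in all 4 libraries, at 0.01 in FVB/N and -0.10 in C57BL/6. A second probe, with a mean of 5.08, gave -0.02 and 0.11. These values lie near or below the minimum of 5.49, where a difference would be hard to see. Among the 4 expressed membrane-bound enzymes 2 were thus higher and 1 lower in FVB/N, and none reached 1.5-fold in C57BL/6. Over all expressed genes 12.4% were higher and 13.9% lower in FVB/N, and counts over so few enzymes do not set them apart.

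In FVB/N, the cytosolic and mitochondrial carbonic anhydrases differed from control by less than Car15 and Car4 did. Car2, the abundant cytosolic enzyme of proximal tubule, intercalated cells and red cells, read 9.94 in the FVB/N diabetic library, against 9.81 in the FVB/N control, and 9.53 in the C57BL/6 diabetic library, against 9.34 in the C57BL/6 control. Its differences were 0.13 and 0.20, while its second, dimmer probe gave -0.39 in FVB/N and 0.80 in C57BL/6. Car13, a further cytosolic enzyme, read 6.54 in the FVB/N diabetic library, against 7.08 in the FVB/N control, and 7.09 in the C57BL/6 diabetic library, against 6.44 in the C57BL/6 control. Its libraries fall into a low and a high pair that cross strain and condition, at -0.55 in FVB/N and 0.65 in C57BL/6.

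Car5a, the mitochondrial enzyme that supplies bicarbonate to urea and glucose synthesis in liver, read 6.78 in the FVB/N diabetic library, against 7.48 in the FVB/N control, and 6.75 in the C57BL/6 diabetic library, against 6.72 in the C57BL/6 control. Here the FVB/N control alone was high, and the difference of -0.70 in FVB/N came with one of 0.76 between the control libraries of FVB/N and C57BL/6. Its paralogue Car5b lay within 6.77 to 7.10 by its brightest probe, while a second probe above the minimum gave 0.57 in FVB/N and -0.59 in C57BL/6. Car11, a relative of the carbonic anhydrases without enzyme activity, read 6.27 in the FVB/N diabetic library, against 7.18 in the FVB/N control, and 6.89 in the C57BL/6 diabetic library, against 7.05 in the C57BL/6 control. At -0.91 it was the member lowest in FVB/N diabetes, with -0.16 in C57BL/6.

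Car1, the cytosolic enzyme of red cells, lay just under the expression minimum, with a mean of 5.47. It read 5.05 in the FVB/N diabetic library, against 5.62 in the FVB/N control, and 6.05 in the C57BL/6 diabetic library, against 5.15 in the C57BL/6 control. Its differences of -0.57 and 0.90 had the signs of those of the 4 expressed erythroid markers, which had medians of -0.97 in FVB/N and 0.73 in C57BL/6, with 2 of 4 past 1.5-fold below control in FVB/N and 3 of 4 higher in C57BL/6. The summed linear intensity of all 5 measured erythroid genes was 9560 in the FVB/N diabetic library against 16134 in the FVB/N control, and 10723 in the C57BL/6 diabetic library against 7301 in the C57BL/6 control. Epb42 was below the minimum. Over all expressed genes 13.9% were at least 1.5-fold lower with diabetes in FVB/N and 6.14% as far higher in C57BL/6. The part of blood in the value of Car1 was not tested. Car6, Car7, Car8 and Car10 were below the minimum and within 4.64 to 5.08 in all libraries.

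Among the SLC4 transporters, the anion exchangers come first. Slc4a1, the exchanger AE1, serves both red cells and the basolateral membrane of acid-secreting intercalated cells. It read 10.43 in the FVB/N diabetic library, against 11.19 in the FVB/N control, and 10.67 in the C57BL/6 diabetic library, against 10.88 in the C57BL/6 control. Both diabetic libraries were below both controls, by 0.76 in FVB/N and 0.21 in C57BL/6. In C57BL/6 this sign was opposite to that of the erythroid markers, which were higher in the diabetic library, and in FVB/N it was the same. The widespread exchanger Slc4a2 lay within 9.16 to 9.30, and Slc4a3, known from heart and brain, at 5.66 to 6.06, with a difference of 0.39 in FVB/N that its other probes, at -0.33 and 0.03, did not share. The gene Slc4a1ap was nearly the same in all 4, from 9.37 to 9.42.

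Slc4a9 encodes AE4, a transporter of the basolateral membrane of bicarbonate-secreting intercalated cells. It read 6.76 in the FVB/N diabetic library, against 6.01 in the FVB/N control, and 5.88 in the C57BL/6 diabetic library, against 6.52 in the C57BL/6 control. The order of condition was thus opposite in the strains, with 0.75 in FVB/N and -0.64 in C57BL/6. The transporters Slc4a5 and Slc4a8 did not reach 1.5-fold. Slc4a5 stood at 0.48 in FVB/N and 0.36 in C57BL/6, from values of 5.25 to 5.98 near the minimum, and Slc4a8, which works beside pendrin in intercalated cells, at -0.02 and 0.05. Slc4a10 was below the minimum in each library.

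The vacuolar ATPase has a peripheral V1 sector that splits ATP and a V0 sector in the membrane that carries the protons. Of 9 expressed V1 subunit genes, 7 were below control and 2 above in the FVB/N diabetic library, whatever the size, with a median of -0.19; after loess centring, or after centring on the median of expressed genes, 5 were below and 4 above. In the C57BL/6 diabetic library 7 were above and 2 below, with a median of 0.14. Of 7 expressed V0 genes, 5 were above control in FVB/N, median 0.14, and 3 in C57BL/6, median -0.06. These medians are smaller than the spread of a single probe, and the median of all expressed genes in FVB/N was itself -0.10. Across all 16 subunits, by the brightest probe, 1 passed 1.5-fold in FVB/N, below control, and in C57BL/6 1 did so above control and 1 below. That is 0% above and 6.25% below in FVB/N, against 12.4% and 13.9% of all expressed genes. In C57BL/6 it is 6.25% each, against 6.14% and 6.35%. Whether the subunits differ from genes at large was not tested.

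Within V1 the widespread subunits stayed close together. The catalytic subunit Atp6v1a read 12.69 in the FVB/N diabetic library, against 13.00 in the FVB/N control, and 12.99 in the C57BL/6 diabetic library, against 13.03 in the C57BL/6 control. Its partner in the catalytic ring, Atp6v1b2, ran the other way at 12.81 in the FVB/N diabetic library, against 12.34 in the FVB/N control, and 12.48 in the C57BL/6 diabetic library, against 12.36 in the C57BL/6 control. The differences in FVB/N, -0.31 and 0.47, were of unequal sign for subunits that the pump holds in equal number, and both were under the threshold. Atp6v1c1, which helps to hold the sectors together, was at 0.45 in FVB/N and 0.14 in C57BL/6, and its second probe gave 0.38 and 0.09. The stalk subunits Atp6v1d, Atp6v1e1 and Atp6v1f were at -0.20, -0.19 and -0.25 in FVB/N and at 0.24, 0.10 and 0.19 in C57BL/6. Atp6v1g2, an isoform known from brain, was the 1 subunit higher in C57BL/6. It read 6.51 in the FVB/N diabetic library, against 6.60 in the FVB/N control, and 7.20 in the C57BL/6 diabetic library, against 6.45 in the C57BL/6 control, a difference of 0.75, and a second probe below the minimum gave 0.99.

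In V0, the large subunit that lines the proton path has several isoforms. Atp6v0a1 read 9.41 in the FVB/N diabetic library, against 9.36 in the FVB/N control, and 8.61 in the C57BL/6 diabetic library, against 9.48 in the C57BL/6 control. The C57BL/6 diabetic library alone was low, by 0.87, yet 2 dimmer probes of the gene gave -0.07 and 0.24 there, and the mean of its 3 probes -0.23. Atp6v0a2, an isoform of the Golgi and endosomes, was at -0.46 in FVB/N and -0.11 in C57BL/6. Another 4 V0 subunits were above control in FVB/N and within 1.5-fold by their brightest probe. Atp6v0e was at 0.52 in FVB/N and 0.22 in C57BL/6, and Atp6v0b at 0.24 and 0.19. Atp6v0e2 was at 0.16 and 0.07, while its second, dimmer probe gave 0.98 in FVB/N and 0.31 in C57BL/6. Atp6v0d1, the subunit that couples V0 to the central stalk, gave 0.14 in FVB/N and -0.06 in C57BL/6 from its brightest probe. Its other probes gave 0.87 and 0.997 in FVB/N, past 1.5-fold, and -0.16 and 0.89 in C57BL/6.

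**Figure D3:**
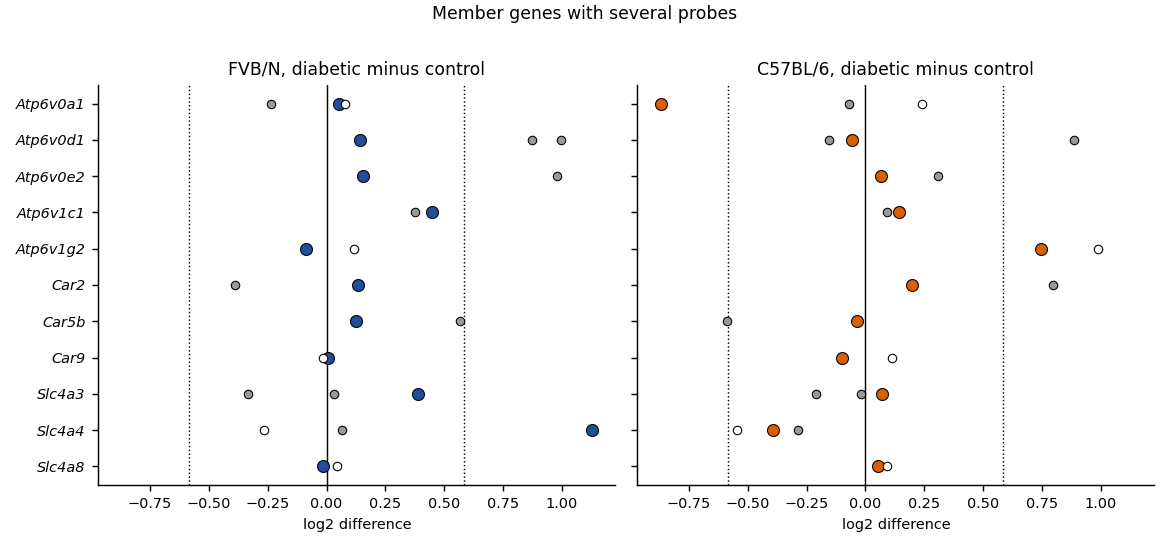
Diabetic minus control difference (log2) of every probe of the 11 members with several probes, in FVB/N (left) and C57BL/6 (right). Large coloured points are the probe that stands for the gene, small grey points are other probes at or above the expression minimum, and white points are probes below it; dotted lines mark 1.5-fold. For Slc4a4 in FVB/N and Atp6v0a1 in C57BL/6 a single probe lies outside the lines.

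Isoforms restricted to intercalated cells and a few other epithelia were described apart. Of these 5, Atp6v0a4, Atp6v1b1 and Atp6v1c2 were expressed, and they differed from control by -0.34, -0.04 and -0.72 in FVB/N, where the value of Atp6v1b1 turned to 0.05 after loess centring and 0.07 after centring on the median of expressed genes. Atp6v1b1, which like ATP6V0A4 is mutated in inherited distal renal tubular acidosis in humans, read 7.01 in the FVB/N diabetic library, against 7.05 in the FVB/N control, and 7.23 in the C57BL/6 diabetic library, against 7.75 in the C57BL/6 control. Atp6v0a4 read 5.91 in the FVB/N diabetic library, against 6.25 in the FVB/N control, and 5.53 in the C57BL/6 diabetic library, against 5.59 in the C57BL/6 control. Both were thus separated more by strain in the control libraries, in opposite directions, than by diabetes in FVB/N. Between controls Atp6v1b1 differed by -0.70 and Atp6v0a4 by 0.66, and with diabetes in C57BL/6 by -0.52 and -0.06. Each had 1 probe, and the C57BL/6 values of Atp6v0a4 lie near the minimum of 5.49. The other two, Atp6v0d2 and Atp6v1g3, were below the minimum. Atp6v1g3 read 6.07 in the FVB/N diabetic library, against 4.83 in the FVB/N control, and 5.003 in the C57BL/6 diabetic library, against 5.27 in the C57BL/6 control, so that 1 of its 4 values was above the minimum. Atp6v1e2 and Atp6v1h were below the minimum with all values from 4.93 to 5.36.

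Intercalated cell markers outside the member list are given beside these values. In FVB/N, 1 of 9 expressed markers was past 1.5-fold above control and 2 below, with a median of -0.20. None reached 1.5-fold in C57BL/6, with a median of -0.04. Over all expressed genes 12.4% were above and 13.9% below in FVB/N, and 6.14% and 6.35% in C57BL/6. The higher one was the transcription factor Foxi1 at 0.97. It read 6.45 in the FVB/N diabetic library against 5.48 in the FVB/N control, and 5.38 against 5.40 in C57BL/6. Only the FVB/N diabetic value was above the minimum of 5.49, so Foxi1 counts as expressed through that library alone. The lower ones were the ammonia transporter Rhbg at -0.68 and the chloride-bicarbonate exchanger Slc26a4, pendrin, at -0.62. The summed linear intensity of the 11 measured markers was 5332 in the FVB/N diabetic library against 6469 in the FVB/N control, and 7574 in the C57BL/6 diabetic library against 7728 in the C57BL/6 control. Most of each sum came from 1 gene, Bsnd. It read 11.62 in the FVB/N diabetic library against 11.82 in the FVB/N control, and 12.13 against 12.14 in C57BL/6. Insrr and Dmrt2 were below the minimum. The part of intercalated cell number in the members' values was not tested.

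Strain differences were fewer in the control libraries than in the diabetic ones. Between controls, 3 of 33 members were at least 1.5-fold higher in FVB/N, Car5a, Atp6v0a4 and Car13, and 2 lower, Atp6v1c2 and Atp6v1b1. That is 9.09% and 6.06%, against 6.29% and 6.75% of all expressed genes. Between diabetic libraries 5 were higher in FVB/N, Slc4a4, Car15, Car4, Slc4a9 and Atp6v0a1, and 4 lower, Atp6v1c2, Atp6v1g2, Car12 and Car11. That is 15.2% and 12.1%, against 14.7% and 16.9%. With the mean of all probes Slc4a4 came to 0.58 here and Atp6v0a1 to 0.29, both under 1.5-fold. The 2 comparisons share no library, but each shares its libraries with the diabetes comparisons above.

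Atp6v1c2, which encodes the C2 isoform of the subunit that joins the sectors, was the 1 member at least 1.5-fold apart between strains in both conditions. It read 8.59 in the FVB/N diabetic library, against 10.50 in the C57BL/6 diabetic library, and 9.31 in the FVB/N control, against 10.35 in the C57BL/6 control. Both FVB/N libraries were below both C57BL/6 libraries, by 1.91 between the diabetic and by 1.04 between the control libraries. The gene had 1 probe, and whether the strains differ in sequence under it was not tested. The widespread isoform Atp6v1c1 did not differ in this way, with 0.29 between the diabetic and -0.02 between the control libraries.

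**Figure D4:**
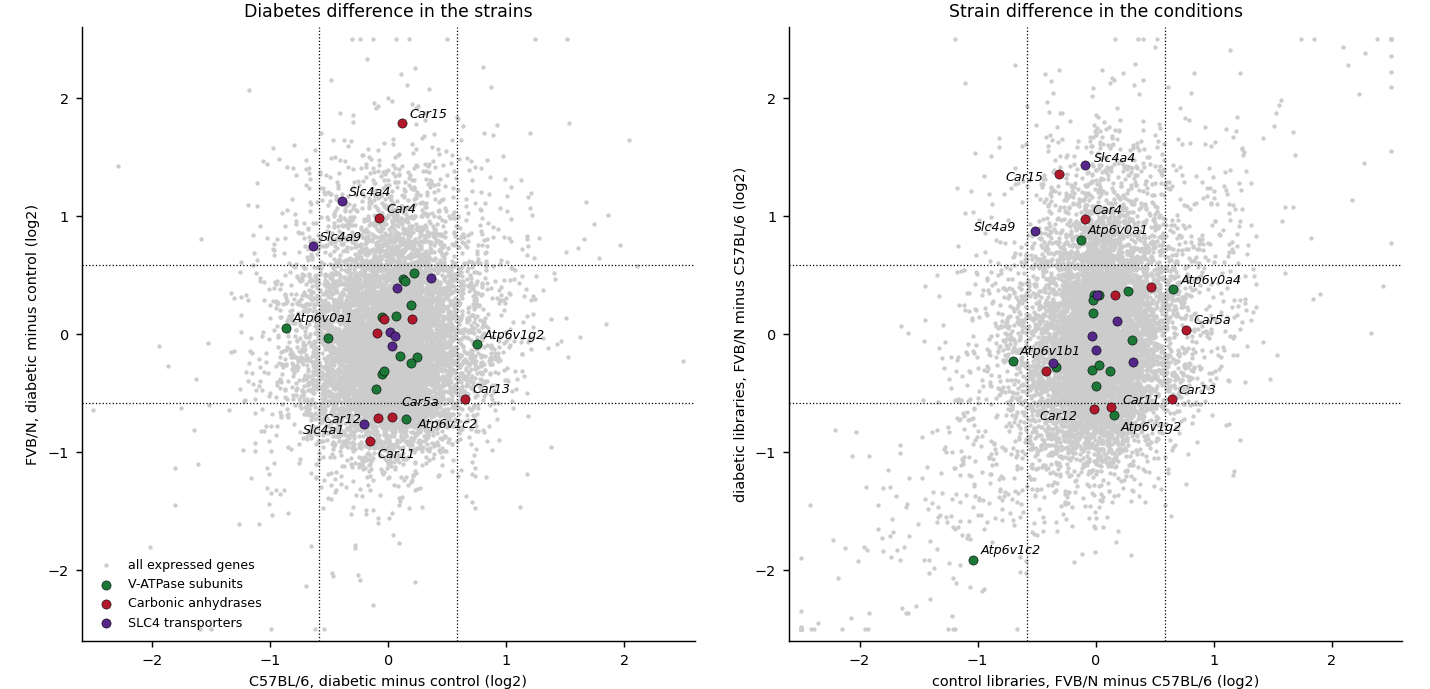
Left, diabetic minus control difference in FVB/N (y axis, log2) against C57BL/6 (x axis). Right, FVB/N minus C57BL/6 difference in the diabetic libraries (y axis, log2) against the control libraries (x axis). Coloured points are the 33 expressed members by family, grey points all 9201 expressed genes with values past 2.5 drawn at 2.5, and dotted lines mark 1.5-fold. Slc4a9 lies in the upper left outside both pairs of lines on the left, and Atp6v1c2 in the lower left on the right.

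The difference of the diabetes differences, FVB/N minus C57BL/6, was at least 1.5-fold above 0 for 5 of 33 members, 15.2%, against 15.5% of all expressed genes. It was as far below 0 for 6 of 33, 18.2%, against 18.6%. The 5 were Car15 at 1.67, Slc4a4 at 1.52, Slc4a9 at 1.39, Car4 at 1.06 and Atp6v0a1 at 0.92, and the 6 were Car13 at -1.19, Atp6v1c2 at -0.87, Atp6v1g2 at -0.84, Car11 at -0.75, Car5a at -0.73 and Car12 at -0.62. Of the 16 ATPase subunits 3 are among these 11, of the 9 carbonic anhydrases 6, and of the 8 Slc4a genes 2. With the mean of all probes, Atp6v0a1 came to 0.20, under 1.5-fold, and Slc4a4 to 0.72. None of these differences of effects could be tested.

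By library, the FVB/N diabetic one was the highest of the 4 for 12 of the 33 members and the lowest for 11. For all expressed genes it was the highest in 28.1% and the lowest in 39.7%. By the brightest probe of each gene, 17 members stayed within 1.5-fold over all 4 libraries, and they hold 11 of the 16 expressed ATPase subunits, such as Atp6v1a, Atp6v1e1 and Atp6v0b. For Atp6v0d1, Atp6v0e2 and Car5b among them, the other probes given above passed 1.5-fold. The carbonic anhydrases Car5b and Car9 and the genes Slc4a2, Slc4a3, Slc4a8 and Slc4a1ap are the rest. The share of all expressed genes within 1.5-fold over the 4 libraries was not counted, so these counts do not set the members or the ATPase subunits apart.

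Other genes of acid-base handling were counted from a fixed list. In FVB/N, 2 of 16 expressed genes passed 1.5-fold above control and 3 below, median 0.04, and in C57BL/6 0 above and 1 below, median -0.23. Over all expressed genes 12.4% were above and 13.9% below in FVB/N, and 6.14% and 6.35% in C57BL/6, so these diabetes counts are near those of genes at large. Between diabetic libraries 6 of the 16 were higher in FVB/N and 3 lower, against 14.7% and 16.9% of all expressed genes. For the difference of effects, 8 were at least 1.5-fold above 0 and 2 as far below, against 15.5% and 18.6%. The median there was 0.52, beside -0.09 over all expressed genes. None of this was tested. In FVB/N the glutamine transporter Slc38a3, which feeds ammonia formation in the proximal tubule, read 6.94 in the diabetic library against 5.54 in the control. In C57BL/6 it read 5.24 in the diabetic library against 5.54 in the control. Its values outside the FVB/N diabetic library thus lie near or below the minimum of 5.49, and it passes the filter only through that library. It is nonetheless among the genes counted as higher in FVB/N above. The apical anion exchanger Slc26a6 read 6.87 in the FVB/N diabetic library against 5.63 in the control. The sulfate transporter Slc26a1, at -0.74, was lower beside Rhbg and Slc26a4. The 1 gene lower in C57BL/6 was the organellar sodium-proton exchanger Slc9a8, at 7.35 in the diabetic library against 8.88 in the control.

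Partners of the vacuolar ATPase outside the symbol rule had a median of -0.24 in FVB/N and 0.23 in C57BL/6 over 7 expressed genes. In FVB/N 1 of 7 was past 1.5-fold above control and 2 below, and none reached this in C57BL/6. The shares of all expressed genes were 12.4% above and 13.9% below in FVB/N, and 6.14% and 6.35% in C57BL/6. Counts over so few genes do not set the partners apart. Tcirg1, which encodes the a3 isoform of V0 known from osteoclasts, read 7.07 in the FVB/N diabetic library against 6.15 in the FVB/N control. The pump's accessory protein Atp6ap2, the prorenin receptor, read 6.47 in the FVB/N diabetic library against 7.13 in the FVB/N control. Oxr1, one of a family of proteins that bind the pump and take it apart, read 8.14 in the FVB/N diabetic library against 9.004 in the FVB/N control.

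Promoter windows of 300 bases were available for 32 of the 43 members. They were searched for the letters CACGTG and for the longer TCACGTGA, which contains them; both read the same on either strand. CACGTG is the core of the element bound by TFEB, a regulator of lysosomal genes that include subunits of this pump. Of 15 ATPase genes 4 held CACGTG and 3 held TCACGTGA, where 8.09% and 1.12% of all 27025 genes with a window did. None of the 7 Slc4a genes held either, and 1 of 10 carbonic anhydrases, Car6, held CACGTG. The 4 ATPase genes are Atp6v0b, Atp6v0d1, Atp6v0e and Atp6v1a, and their differences in FVB/N were 0.24, 0.14, 0.52 and -0.31, all under 1.5-fold. A match is only these letters in this window. The stretches that hold TCACGTGA are shown with 20 bases on either side of the core, on the gene's strand of GRCm38.p6 and with CACGTG in capitals. They are chr8:105566042-105566087, minus strand, for Atp6v0d1, chr17:26676379-26676424, plus strand, for Atp6v0e, and chr16:44139365-44139410, minus strand, for Atp6v1a.
Atp6v0d1: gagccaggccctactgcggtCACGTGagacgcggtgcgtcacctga
Atp6v0e: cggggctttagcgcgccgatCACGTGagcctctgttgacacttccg
Atp6v1a: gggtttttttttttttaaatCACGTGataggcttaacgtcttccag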

How the data were processed

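Total RNA of whole kidneys was labelled as biotinylated cRNA and measured on Illumina arrays, per the labels' protocols. The deposited values are log2 intensities, a unit read from their range. No label names the background correction, normalization or filters the authors used; each is thus not given in the sources used. The libraries, each sorted by value, differ by at most 0.42 from one another. Depth does not apply to arrays; their number, 1 per group, limits precision.

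Values were used as deposited with pandas 2.3.3 and numpy 2.4.6. Of 24613 probes, 20984 had 1 gene symbol in the platform annotation; 1 with several and 3628 with none were left out. All 43 members matched the reference gene table. A gene is its probe with the highest mean. Differences are diabetic minus control and FVB/N minus C57BL/6. The calculation was checked on simulated data. Members and lists were chosen with earlier results of these data known. All expressed members are named, with full values for those past 1.5-fold and their partners, and from other lists at most 4 genes each. Alternatives were quantile normalization, median centring, loess centring (statsmodels 0.14.6, span 0.3), 2 other filters and the mean of all probes; centring on the median of expressed genes was added after seeing the data.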

Additional observations from a re-analysis of the deposited data

Results flagged for a closer look

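The transporter gene Slc4a9 was singled out because its 2 diabetes differences each reached 1.5-fold in opposite directions. It was 0.75 higher in the FVB/N diabetic library and -0.64 in the C57BL/6 diabetic library, a difference of effects of 1.39 log2. With 1 library per group this difference was not tested. The gene had 1 probe, and its values of 5.88 to 6.76 lie near the expression minimum of 5.49.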

How the results depend on the processing

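No paired analysis was possible because each group has 1 library and no result comes from a test. Counts moved most with the stricter filter, a mean at or above percentile 75 of all probes, which left 22 members. It gave 0 higher and 1 lower with diabetes in C57BL/6, against 2.99% and 3.79% of all genes that it kept. In FVB/N it gave 3 lower, against 14.3%. Between control libraries 0 were higher, against 3.49%, and between diabetic libraries 2 were lower, against 16.8%. For the difference of effects 2 were at least 1.5-fold below 0, against 16.2%. Members lower between diabetic libraries also numbered 2 after loess centring and after centring on the median of expressed genes, which was chosen after seeing the data and removes the shift of -0.10 in FVB/N. Over all expressed genes, the split between diabetic libraries turned from 14.7% higher and 16.9% lower to 17.2% and 13.3% with that centring, and that of the difference of effects from 15.5% and 18.6% to 18.4% and 15.04%. With the mean of all probes, 1 member was lower in C57BL/6, since Atp6v0a1 came to -0.23, and Slc4a4 came to 0.31 in FVB/N. The members' medians moved by less than the disagreement of 2 probes under each of these alternatives, a wide bar for a median over many genes. The sign of some of these small medians was not stable. With the mean of all probes the FVB/N diabetes median went from 0.0057 to -0.011. Between diabetic libraries it went from -0.020 to 0.059 with centring on the median of expressed genes. Of 38 differences past 1.5-fold, none changed sign with quantile normalization, the 3 centrings or the mean of all probes. Past 1.5-fold stayed 38 with quantile normalization and median centring, 35 with either other centring and 33 with the mean of all probes. Library medians lay within 5.48 to 5.49, so median centring moved values little, and the mean of all probes leaves genes with 1 probe unchanged. The 2 other filters change no value, so they cannot check the size of a difference. The stricter one kept 21 of the 38.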
